A study of Mus musculus with 12 samples.

Results

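Of the 50600 gene identifiers counted in lymph node CD8+ T cells, 10 mark the other arm of the T cell lineage, the CD4+ helper cells and the regulatory T cells. They were chosen by name, with earlier results of these data known: Cd4, Zbtb7b, Cd40lg, Foxp3, Tnfrsf4, Tnfrsf18, Ikzf2, Izumo1r, Ctla4 and Icos. All 10 passed the filter on low counts that left 16396 genes to test. The samples were CD8+ T cells, the cytotoxic lymphocytes, from male C57BL/6J mice of 8 weeks. All animals had lived in constant darkness, so that no light cue reset the body clock, and no sample carried a genotype or a drug treatment in its labels. The libraries were from 6 circadian times (CT2, CT6, CT10, CT14, CT18 and CT22, in hours) and 2 days, which gave 12 libraries with 1 library per time and day. How many mice went into a library is not stated, so p-values here measure only the spread between these samples, which may be partly technical. In the libraries CT10 day 1 and CT2 day 2 most members and several markers of other cell types were low, and results that rest on them are given with and without them. In counts scaled to library size, CT2 day 1 was the library most often lowest over all tested genes (18.2% of genes). By that measure it was lowest in none of the 10 members. In TPM, a separate quantification that also takes gene length into account, it was lowest for Foxp3 (2.39 TPM) and Ikzf2 (4.70 TPM). Cd8a was lowest in this library in TPM as well (543 TPM), though not in scaled counts, and Cd8b1 in neither.

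T cells leave the thymus with one of a pair of co-receptors. CD8 binds MHC class I and CD4 binds MHC class II, while the T cell receptor reads the peptide held there. The factor ThPOK, encoded by Zbtb7b, holds cells to the CD4 fate and represses CD8 genes. Helper cells activate B cells and dendritic cells through CD40 ligand and, as follicular helper cells, depend on ICOS. Regulatory T cells are specified by FOXP3, commonly carry HELIOS (Ikzf2), GITR (Tnfrsf18), OX40 (Tnfrsf4) and folate receptor 4 (Izumo1r), and restrain other cells in part through CTLA-4. Several of these genes, among them Icos, Ctla4, Tnfrsf4 and Tnfrsf18, are also switched on in activated CD8+ T cells, and some mouse dendritic cells carry CD4.

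The promoters of 4 members are shown. Of these, Tnfrsf4, Foxp3 and Ctla4 were low in the same libraries, CT10 day 1 and CT2 day 2, and Tnfrsf18 was not. Tnfrsf4 and Tnfrsf18 are neighbours on chromosome 4 that did not vary alike, and Foxp3 specifies regulatory T cells. Of the other members, Ctla4 followed Cd4 most closely in counts scaled to library size. The sequences are from RefSeq on GRCm38.p6 and read 5′ to 3′ on the plus strand. Each comes from the 250 bases before a transcription start, and bases that lie in an annotated untranslated region of any gene were left out. Capitals mark the motifs searched on both strands. Among them, clock proteins bind the E-box CACGTG, and nuclear receptors of the clock bind the motif AGGTCA.
Tnfrsf4, chr4:156013611-156013694: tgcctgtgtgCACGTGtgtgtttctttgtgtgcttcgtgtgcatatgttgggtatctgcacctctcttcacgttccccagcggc
Tnfrsf18, chr4:156026072-156026163: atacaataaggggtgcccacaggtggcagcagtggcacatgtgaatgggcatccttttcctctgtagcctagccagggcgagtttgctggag
Foxp3, chrX:7580233-7580482: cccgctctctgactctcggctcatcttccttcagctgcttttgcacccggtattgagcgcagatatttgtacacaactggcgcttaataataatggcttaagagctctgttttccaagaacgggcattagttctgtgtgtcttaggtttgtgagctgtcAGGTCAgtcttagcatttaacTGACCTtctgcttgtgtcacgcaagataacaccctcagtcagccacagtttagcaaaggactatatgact
Ctla4, chr1:60908775-60909024: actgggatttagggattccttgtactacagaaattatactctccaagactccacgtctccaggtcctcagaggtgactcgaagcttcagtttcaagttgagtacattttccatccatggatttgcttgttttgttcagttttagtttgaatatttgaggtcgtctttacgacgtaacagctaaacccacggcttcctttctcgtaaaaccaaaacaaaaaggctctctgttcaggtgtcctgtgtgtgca
The table of promoters held 8 windows for 6 of the 10 members, and none was matched for Cd4, Cd40lg, Ikzf2 and Icos. Across the 8 full windows of 250 bases, 1 held CACGTG, the window of Tnfrsf4, and 1 held AGGTCA, the window of a Foxp3 start, with 1 match on each strand. Among 32851 mouse promoters cut to the same length, 6.02% held CACGTG and 14% held AGGTCA. The D-box TTANGTAA (in 2.06% of promoters) and the forkhead motif TGTTTAC (in 3.17%) were in none of the 8. The NFAT core GGAAA, which was not put in capitals, was in 55.6% of all promoters. Among the 8 full windows it was missing only from the Zbtb7b window at chr3:89387672-89387921. In GENCODE M21 the Foxp3 stretch lies inside an exon of the noncoding gene Flicr (chrX:7577908-7581027, plus strand). A match of letters is a description and says nothing about binding, and no transcript in the annotation used for coordinates contained the bases after the RefSeq start of Tnfrsf4.

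Levels were compared between genes in TPM, a unit that takes the length of a gene into account. The 12 libraries carried the transcripts of CD8+ T cells at high levels: Cd8a at 644 ± 54.2 TPM, Cd8b1 at 946 ± 61.2 TPM and Cd3e, a chain of the T cell receptor complex, at 503 ± 53.0 TPM (SD, n = 12). All 10 members were detected in every library at far lower levels. Cd4 itself was at 17.3 ± 3.29 TPM (SD, n = 12). In terms of the Cd8a level in the same library, the Cd4 level was 2.72 ± 0.660% (SD, n = 12), with a minimum of 1.53% in CT10 day 1 and a maximum of 4.11% in CT6 day 1. RNA of bulk samples cannot show which cells held these transcripts, and fewer cells of a type cannot be told apart from less RNA per cell.

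Tnfrsf18 was the highest member, at 43.3 ± 1.89 TPM, followed by Icos at 35.1 ± 3.39 TPM and Izumo1r at 27.8 ± 2.01 TPM (SD, n = 12). These surface receptors all stood above the co-receptor Cd4. Tnfrsf4 was at 21.1 ± 3.49 TPM and Ctla4 at 13.7 ± 2.47 TPM (SD, n = 12). The transcription factors were lower, with Zbtb7b at 7.81 ± 1.61 TPM, Ikzf2 at 6.84 ± 0.916 TPM and Foxp3 at 3.68 ± 0.772 TPM (SD, n = 12). Cd40lg, the helper ligand, was the lowest at 3.25 ± 0.430 TPM (SD, n = 12). Of the neighbours in this order, only Ikzf2 and Foxp3 had ranges that did not overlap, and that by a narrow margin (lowest Ikzf2 value 4.70, highest Foxp3 value 4.68 TPM). Within single libraries the order was steadier: 6 of the 9 neighbouring pairs kept it in 12 of 12 libraries, Tnfrsf4 exceeded Cd4 in 11, Zbtb7b exceeded Ikzf2 in 10, and Foxp3 exceeded Cd40lg in 7. Ratios between members were less even than their order. The Foxp3 level was 21.6 ± 4.29% of the Cd4 level (SD, n = 12), with a minimum of 13.5% in CT2 day 1 and a maximum of 27.9% in CT10 day 2.

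**Figure D1:**
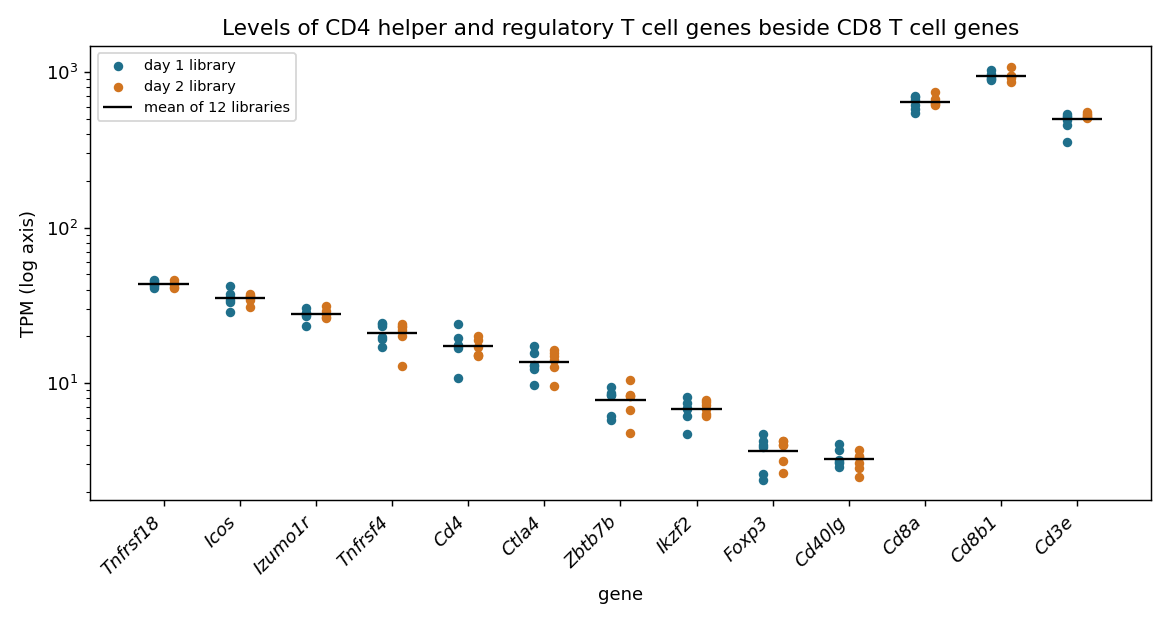
TPM (log axis) of the 10 members, ordered by mean, beside Cd8a, Cd8b1 and Cd3e; points are libraries, blue for day 1 and orange for day 2, and the line is the mean of 12. The members lie between 2.39 and 46.2 TPM in single libraries, and Cd8a, Cd8b1 and Cd3e lie above 356 TPM.

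The circadian design asks whether these transcripts follow time of day. None of the 10 members passed the test for a 24 h wave, that for any difference among the 6 circadian times, or that for a difference between the days (edgeR's quasi-likelihood F test, Benjamini-Hochberg adjusted p under 0.05 over 16396 genes). Over all tested genes the shares passing were 0%, 0.256% and 0%. At an unadjusted p under 0.05, 1 member (Izumo1r) was reached by the 24 h test, against 13.3% of all genes, 2 members (Ikzf2 and Izumo1r) by the test of times, against 12.7%, and 0 by the day test, against 1.82%. The members' shares at this level lie near those of all genes. DESeq2 gave 0 members for the 24 h wave, 1 for the circadian times (Ikzf2) and 0 for the days, where 1.86%, 3.64% and 0.0366% of its genes passed, and limma on log2 TPM gave 0 in each of the 3. Without the filter on low counts 5 members (Cd4, Zbtb7b, Foxp3, Ikzf2 and Ctla4) passed the test of times, where 2146 of 29911 genes (7.17%) did, and 0 members passed the 24 h test or the day test, where 1.08% and 0% did. The median 24 h amplitude, the log2 distance from mean to peak, was 0.10 over the members and 0.10 over all tested genes. The amplitude plus 2 standard errors ran from 0.12 for Icos to 0.43 for Zbtb7b. Small waves moved with single libraries. With 1 library left out, 8 of the 10 amplitudes changed by more than 1.5 times under at least 1 choice of library, the exceptions being Zbtb7b (0.17 to 0.29) and Izumo1r (0.10 to 0.16). The value fell to 0.01 for Tnfrsf4, 0.02 for Ctla4 and 0.07 for Foxp3 without CT2 day 2, to 0.04 for Cd4 without CT10 day 1 and to 0.05 for Tnfrsf18 without CT2 day 1. Without CT6 day 1 it rose to 0.22 for Cd4, 0.19 for Ikzf2, 0.14 for Ctla4 and 0.06 for Icos, and without CT22 day 2 to 0.09 for Cd40lg.

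Within one gene, libraries were compared in CPM, counts scaled to library size. Coordinates are on GRCm38. The lineage genes come first. Cd4 (ENSMUSG00000023274.14, chr6:124864692-124888221, minus strand) read 44.7, 54.6, 26.4, 45.9, 41.4 and 42.5 CPM at CT2 to CT22 of day 1 and 31.5, 37.4, 38.0, 44.0, 44.9 and 47.0 CPM on day 2. The low values were CT10 day 1 and CT2 day 2 and the high one was CT6 day 1, so the days disagreed at the early times and all 6 libraries of CT14, CT18 and CT22 lay between 41.4 and 47.0. The highest value was 2.07 times the lowest, and the 24 h amplitude was 0.10 ± 0.10 log2 (SE, adjusted p = 0.815).

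Zbtb7b (ENSMUSG00000028042.15, chr3:89377644-89394776, minus strand), which keeps cells in the CD4 lineage, read 17.1, 18.3, 10.9, 18.7, 19.3 and 22.3 CPM on day 1 and 11.3, 17.7, 18.1, 19.7, 19.9 and 23.4 CPM on day 2. Both CT22 libraries lay above the other 10, and the same pair of libraries as for Cd4 was lowest. It had the largest amplitude of the members, 0.23 ± 0.10 log2 (SE) with a fitted peak at 19.2 ± 1.73 h, a fold of 1.37 from trough to peak, and an adjusted p of 0.469 for the wave and 0.398 for the times. Cd40lg (ENSMUSG00000031132.1, chrX:57212143-57224042, plus strand) varied little, from 2.92 CPM in CT22 day 2 to 4.71 CPM in CT22 day 1 (median 3.83). Its 2 extremes were the same circadian time on the 2 days, and its coefficient of variation, 11.4%, was close to the 9.74% that counting alone gives at 78 to 134 counts per library.

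Foxp3 (ENSMUSG00000039521.12, chrX:7573644-7595245, plus strand) read 8.25, 12.2, 7.43, 13.4, 11.3 and 11.6 CPM on day 1 and 7.59, 11.8, 12.6, 12.0, 9.44 and 12.6 CPM on day 2. Both CT2 libraries were low, at 8.25 and 7.59 CPM, and with CT10 day 1 they were the lowest 3 of the 12. The amplitude was 0.14 ± 0.11 log2 (SE, adjusted p = 0.741), and the test of times gave an adjusted p of 0.415. Foxp3 overlaps Ppp1r3f and Ccdc22, which lie on the opposite strand. On the strand opposite to Foxp3 the tables held 4139 counts against 3637 on its own strand, so its value depends on the counting by strand, and counts made without strand were 88.5% of those used here.

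Ikzf2 (ENSMUSG00000025997.13, chr1:69531214-69687245, minus strand), which encodes the factor HELIOS, read 32.2, 48.6, 30.9, 39.7, 45.2 and 40.8 CPM on day 1 and 35.5, 39.7, 36.7, 42.1, 42.6 and 44.8 CPM on day 2. The 4 libraries of CT2 and CT10 lay at 30.9 to 36.7 CPM and did not overlap the other 8, at 39.7 to 48.6 CPM. In TPM, which rests on the RSEM tables, they did overlap: CT10 day 1 and day 2 were at 6.94 and 7.23 TPM and CT2 day 2 at 6.79 TPM, above CT14 day 2 (6.17), CT22 day 1 (6.19) and CT6 day 2 (6.36 TPM). The shape, low at CT2, higher at CT6 and low again at CT10, gave a small wave. The 24 h amplitude was 0.09 ± 0.07 log2 (SE), with an unadjusted p of 0.431, against 0.0110 for the circadian times. The adjusted p for the times was 0.246 with edgeR, 0.0417 with DESeq2 and 0.775 with limma on log2(TPM + 1). Over all alternatives it ran from 0.000106 to 0.775. The low end came from edgeR without the filter on low counts, where 7.17% of all genes passed.

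Izumo1r (folate receptor 4, ENSMUSG00000031933.17, chr9:14885814-14903949, minus strand) read 34.4, 28.1, 24.8, 28.5, 31.6 and 30.7 CPM on day 1 and 31.1, 27.6, 27.5, 30.3, 33.5 and 28.2 CPM on day 2. CT10 was lowest on both days, and the 4 libraries of CT2 and CT18 lay above the other 8. The fitted wave had an amplitude of 0.12 ± 0.04 log2 (SE), a fold of 1.19 from trough to peak, and a peak at 21.4 ± 1.33 h. Its p of 0.0426 became 0.360 after adjustment with edgeR's test, and that for the times went from 0.0207 to 0.290.

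The costimulatory receptors of the TNF receptor family differed from each other. Tnfrsf4 (OX40, ENSMUSG00000029075.6, chr4:156013843-156016612, plus strand) read 17.8, 19.6, 14.5, 19.7, 18.8 and 16.0 CPM on day 1 and 10.9, 17.8, 19.6, 17.0, 18.0 and 18.1 CPM on day 2. CT2 day 2 stood alone at the bottom, followed by CT10 day 1. Tnfrsf18 (GITR, ENSMUSG00000041954.18, chr4:156026164-156028895, plus strand), the next of the pair along the chromosome, read 46.5, 39.5, 38.7, 37.1, 34.7 and 37.0 CPM on day 1 and 38.7, 38.0, 38.4, 37.3, 38.9 and 35.6 CPM on day 2. Here CT2 day 1 was the high value, and the 2 libraries that were lowest in Tnfrsf4 lay in the middle. In TPM CT2 day 1 did not stand out, at 45.2 TPM against 46.2 in CT6 day 1 and 46.0 in CT18 day 2. The coefficient of variation was 14.7% for Tnfrsf4 and 7.62% for Tnfrsf18, and neither passed for the 24 h wave (adjusted p = 0.731 and 0.515). The antisense gene Gm16008 overlaps Tnfrsf18, and counts made without strand held 50.1% of the Tnfrsf18 counts used here.

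Ctla4 and Icos, receptors of the CD28 family that lie in the same stretch of chromosome 1 (ENSMUSG00000026011.13, chr1:60887000-60915832, and ENSMUSG00000026009.14, chr1:60977927-61000320, both on the plus strand), were lowest in the same libraries. Ctla4 read 24.3, 26.9, 15.6, 25.3, 19.3 and 20.5 CPM on day 1 and 15.8, 20.1, 21.7, 26.2, 22.8 and 23.4 CPM on day 2. Icos read 98.3, 98.6, 72.4, 94.5, 87.7 and 85.6 CPM on day 1 and 80.0, 83.0, 88.0, 95.9, 86.9 and 87.2 CPM on day 2. For both genes CT10 day 1 was lowest, CT2 day 2 was next and CT6 day 1 was highest, over a range of 1.73-fold for Ctla4 and 1.36-fold for Icos. Their amplitudes were 0.06 ± 0.09 and 0.01 ± 0.05 log2 (SE, adjusted p = 0.909 and 0.983).

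**Figure D2:**
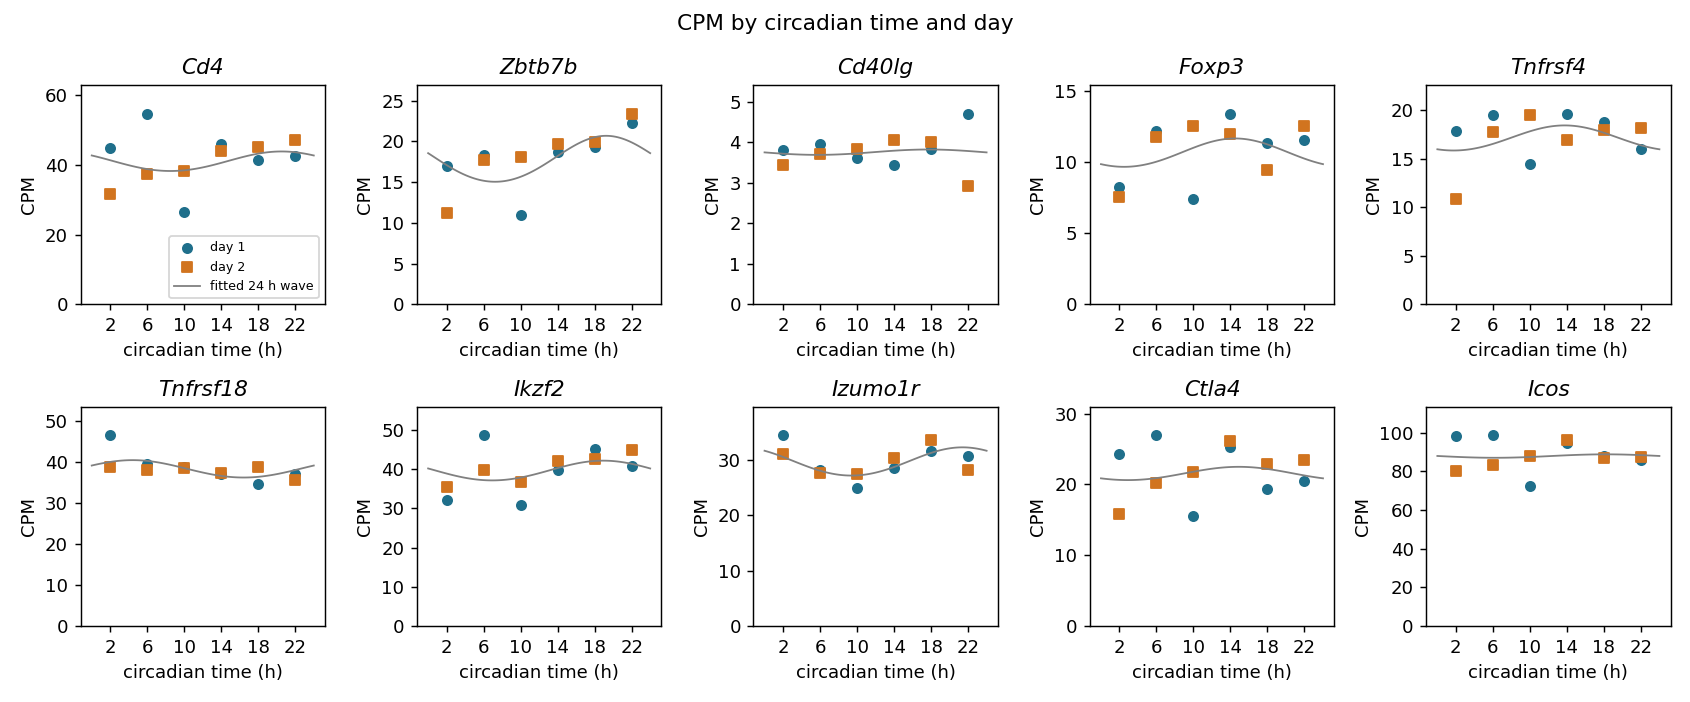
CPM of each member against circadian time (h), with blue circles for day 1, orange squares for day 2 and the fitted 24 h wave in grey. The days lie apart most at CT2 and CT10 for Zbtb7b and Tnfrsf4, and at CT2, CT6 and CT10 for Cd4 and Ctla4, and Zbtb7b is highest at CT22 on both days.

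Day 2 differed from day 1 by between -0.09 ± 0.12 (Cd40lg) and 0.05 ± 0.15 log2 (Zbtb7b, SE, 6 libraries a day), and edgeR's adjusted p was 1 for all 10 members. Their median difference was -0.03, against 0.00 over all tested genes. The members did vary among libraries. Their median SD of log2 CPM was 0.22, against 0.16 over all tested genes, and Zbtb7b (percentile 75.3), Foxp3 (71.0) and Cd4 (68.1) ranked highest in spread while Tnfrsf18 (29.4) ranked lowest. For Cd4 the coefficient of variation was 17.9% against 2.94% from counting, and for Foxp3 19.4% against 5.74%.

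This spread had a common shape. In Cd4, Zbtb7b, Foxp3, Tnfrsf4, Ctla4 and Icos, 6 of the 10 members, CT10 day 1 and CT2 day 2 were the lowest 2 of the 12 libraries. In TPM this held for 5 of them, Foxp3 being the exception, against 7.68% of all tested genes (1259 of 16396). This pair of libraries was singled out after the values were seen. The same lowest pair in CPM was found in 10.2% of all tested genes (1677 of 16396). In CPM the single lowest library of 8 of the 10 members was one of this pair, against 23.6% of all tested genes. The exceptions were Cd40lg and Tnfrsf18. In TPM Foxp3 and Ikzf2 were exceptions too, with CT2 day 1 lowest. Without both libraries no member passed any of the 3 tests, while the genes passing overall moved to 74 for the 24 h wave, 1359 for the times and 16 for the days.

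**Figure D3:**
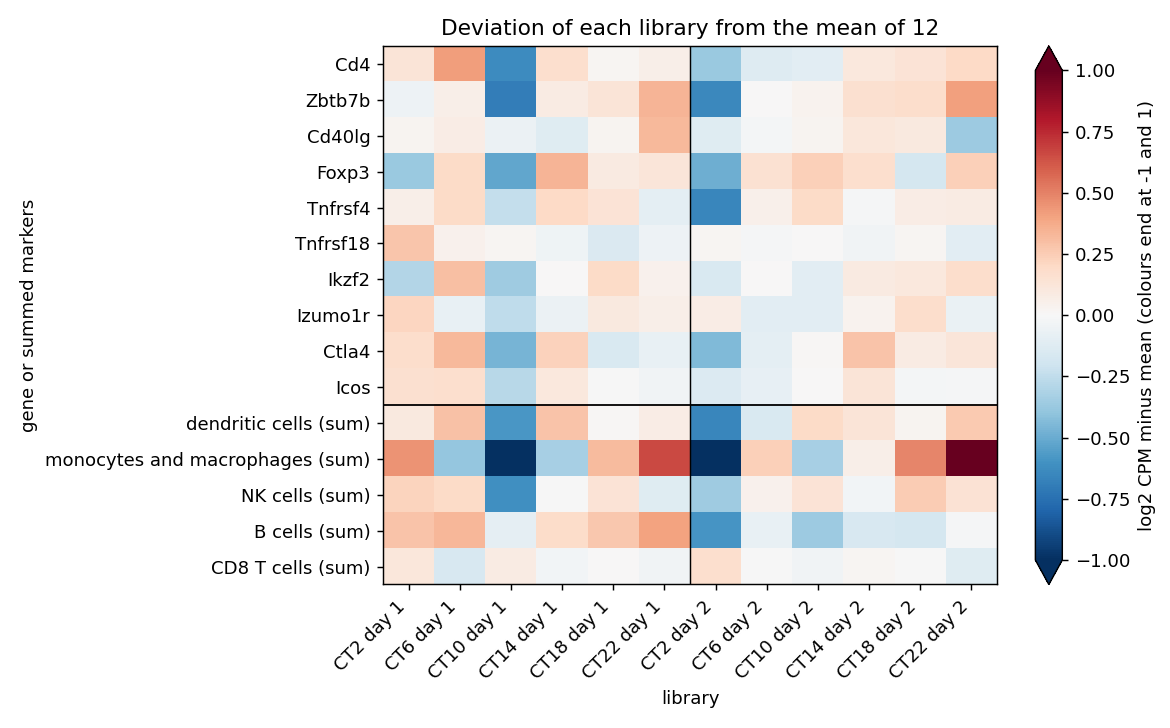
Heat map of log2 CPM minus its mean over 12 libraries for the 10 members (top) and for summed markers of 5 cell types (bottom), with libraries as columns and the days split by the vertical line. The columns CT10 day 1 and CT2 day 2 are blue (below the mean) in most members and in the dendritic, monocyte and NK cell sums, and not in Tnfrsf18 or the CD8 T cell sum.

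Markers of other cell types moved with these libraries. The summed level of 9 dendritic cell markers ranged from 380 to 732 CPM, with CT2 day 2 lowest and CT10 day 1 next at 399 CPM. Its most abundant genes were Fscn1 (173 TPM), an actin bundling protein of mature dendritic cells, and the chemokine Ccl22 (67.4 TPM). The 12 monocyte and macrophage markers, led by Lyz2 and Ccr2, ranged from 282 CPM in CT10 day 1 and 293 CPM in CT2 day 2 to 1234 CPM in CT22 day 2. The 6 NK cell markers, led by Klra7 and Ncr1, ranged from 34.1 to 62.4 CPM, the 9 B cell markers, led by Cd79b and Cd79a, from 153 to 304 CPM, and the 8 neutrophil markers, led by S100a9, from 11.6 to 94.2 CPM. The same pair of libraries was lowest in the NK cell and neutrophil sums, while CT2 day 2 and CT10 day 2 were lowest in the B cell sum. By contrast the sum of the 6 markers listed for CD8 T cells ranged from 4309 to 5394 CPM, with CT2 day 2 highest. Of these, Cd8a and Cd8b1 encode the CD8 co-receptor. Cd3e, Cd3d, Cd3g and Trac encode parts of the T cell receptor complex that CD4+ T cells share. The gamma delta T cell markers (4 of 5 listed were matched) ranged from 27.9 to 33.4 CPM and the 7 markers of stroma and endothelium from 135 to 178 CPM. None of these markers was at 0 in all libraries. The part of these other cells in the low values of the members was not tested.

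The relation between members was measured as a correlation of log2 CPM over the 12 libraries, in a family of 27 relations of Cd4 and Foxp3 with the other members and with 5 marker sums. Adjusted p-values are Benjamini-Hochberg values over the 27 from 100000 two-sided permutations, which treat the 2 libraries of a time as independent. The 2 libraries farthest from the median were picked on Cd4 or Foxp3 alone, without regard to the partner. For both genes they were CT10 day 1 and CT2 day 2. These fall on different days, so every r within a day still included a farthest library. By Pearson's r, 13 of the 27 passed.

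Of the partners tested, Cd4 followed Ctla4 most closely in log2 CPM. This pair had r = 0.91 (permutation p = 5e-05, adjusted 0.00135) and rho = 0.86 (p = 0.00075, adjusted 0.014). The r was 0.93 within day 1, 0.90 within day 2 and 0.75 without the 2 farthest libraries. Cd4 with Icos gave r = 0.88 (permutation p = 0.0002, adjusted 0.0027) and rho = 0.71 (p = 0.0129, adjusted 0.0696), with 0.94 and 0.70 within days and 0.66 without the 2 farthest. On log2(TPM + 1) Icos came first, at r = 0.91 (permutation p adjusted 0.00351), and Ctla4 was at 0.81 (adjusted 0.00864). Cd4 also followed the dendritic cell sum, with r = 0.90 (permutation p = 0.00036, adjusted 0.00324) and rho = 0.83 (p = 0.00143, adjusted 0.014). That r was 0.98 and 0.85 within days and 0.68 without the 2 farthest. These 3 relations kept an r of 0.66 or more in the remaining 10 libraries, where their adjusted p-values were 0.124, 0.183 and 0.183.

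Other relations rested on the 2 farthest libraries. Cd4 with Zbtb7b had r = 0.82 (permutation p = 0.00408, adjusted 0.0157) and rho = 0.61 (p = 0.0404, adjusted 0.118), within days 0.80 and 0.95, and 0.18 without the 2. Cd4 with Foxp3 had r = 0.65 (permutation p = 0.0196, adjusted 0.0481) and rho = 0.55 (p = 0.0715, adjusted 0.176), within days 0.72 and 0.58, and -0.01 without the 2. Cd4 with Tnfrsf4 had r = 0.69 (permutation p = 0.0224, adjusted 0.0494) and rho = 0.60 (p = 0.0438, adjusted 0.118), within days 0.85 and 0.72, and 0.22 without the 2. So in the other 10 libraries the Cd4 and Foxp3 levels showed next to no linear relation. Cd4 with Ikzf2 had r = 0.74 (permutation p = 0.00588, adjusted 0.0182) and rho = 0.62 (p = 0.0376, adjusted 0.118), within days 0.70 and 0.94, and 0.47 without the 2. On log2(TPM + 1) the r of Cd4 with Ikzf2 was 0.24 (adjusted p = 0.504). Cd4 with the NK cell sum had r = 0.84 (permutation p = 0.00194, adjusted 0.0131) and rho = 0.66 (p = 0.0221, adjusted 0.0996), within days 0.90 and 0.78, and 0.28 without the 2.

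Foxp3 correlated with Zbtb7b at r = 0.78 (permutation p = 0.00385, adjusted 0.0157) and rho = 0.46 (p = 0.134, adjusted 0.258), within days 0.78 and 0.79, and 0.29 without the 2 libraries. With Tnfrsf4 it gave r = 0.72 (permutation p = 0.00607, adjusted 0.0182) and rho = 0.76 (p = 0.00629, adjusted 0.0425), within days 0.71 and 0.86, and 0.30 without the 2. With Ikzf2 it gave r = 0.71 (permutation p = 0.011, adjusted 0.0297) and rho = 0.40 (p = 0.201, adjusted 0.304), within days 0.85 and 0.46, and 0.48 without the 2. These partners are a lineage factor, a costimulatory receptor and a regulatory T cell factor. With Ctla4 it gave r = 0.65 (permutation p = 0.0238, adjusted 0.0494) and rho = 0.62 (p = 0.037, adjusted 0.118), within days 0.59 and 0.74, and 0.04 without the 2. With the dendritic cell sum it gave r = 0.81 (permutation p = 0.00282, adjusted 0.0152) and rho = 0.83 (p = 0.00156, adjusted 0.014), within days 0.79 and 0.86, and 0.40 without the 2.

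Tnfrsf18, Izumo1r and Cd40lg stood outside this pattern. Cd4 had r = 0.01 with Tnfrsf18 (permutation p = 0.963, adjusted 0.963, rho = 0.01 with p = 0.974), r = 0.40 with Izumo1r (permutation p = 0.201, adjusted 0.246, rho = 0.24 with p = 0.459) and r = 0.13 with Cd40lg (permutation p = 0.671, adjusted 0.725, rho = 0.08 with p = 0.818). Foxp3 had r = -0.52 with Tnfrsf18 (permutation p = 0.0805, adjusted 0.121, rho = -0.40 with p = 0.202), which was -0.55 and -0.58 within days and -0.73 without the 2 libraries. Foxp3 had r = -0.19 with Izumo1r (permutation p = 0.557, adjusted 0.627, rho = -0.37 with p = 0.238), but 0.12 and -0.70 within days, and -0.88 in the 10 libraries without the 2 (adjusted p = 0.0159). Both genes are known from regulatory T cells. Of the alternatives run, this pair passed only with both libraries removed, a choice made after the values were seen. Among the other relations that did not pass were Cd4 with the monocyte sum (r = 0.62, permutation p = 0.0283, adjusted 0.0546, rho = 0.44, p = 0.157) and Foxp3 with Icos (r = 0.52, permutation p = 0.0881, adjusted 0.125, rho = 0.52, p = 0.0842). Without the 2 libraries these were -0.08 and -0.17. Both passed under another setting: Cd4 with the monocyte sum without CT6 day 1 (r = 0.82, permutation p adjusted 0.0118), and Foxp3 with Icos on log2(TPM + 1) (r = 0.73, adjusted 0.0228) and without CT2 day 1 (r = 0.78, adjusted 0.0137).

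**Figure D4:**
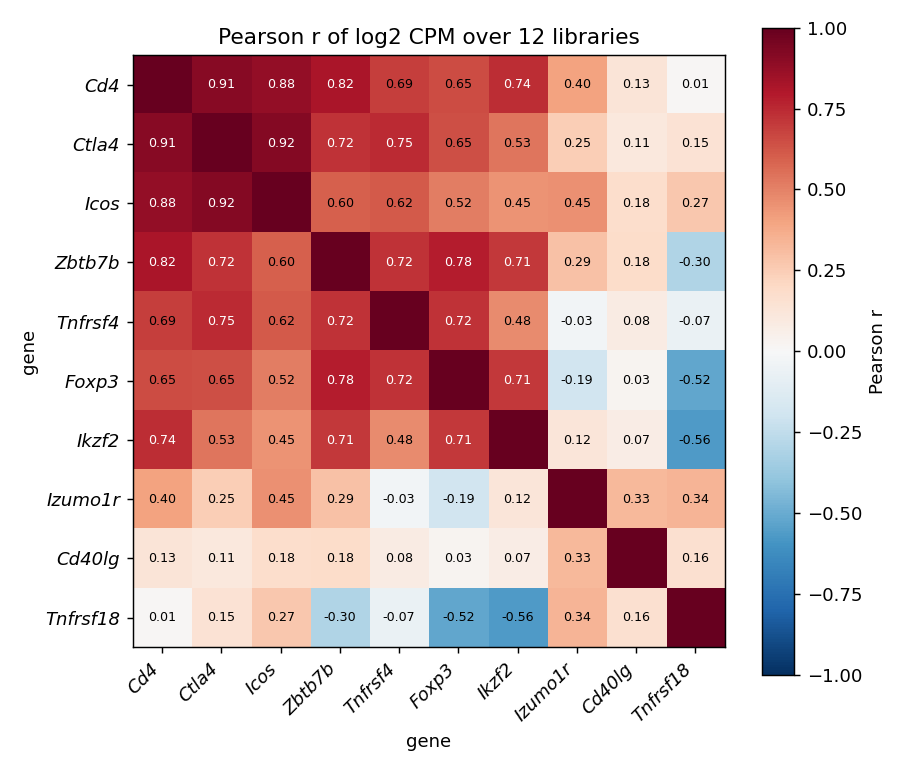
Pearson r of log2 CPM over 12 libraries for each pair of members, red for positive and blue for negative; only pairs with Cd4 or Foxp3 were tested. Cd4, Ctla4 and Icos form the reddest block, and Izumo1r, Cd40lg and Tnfrsf18 stay pale or blue.

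**Figure D5:**
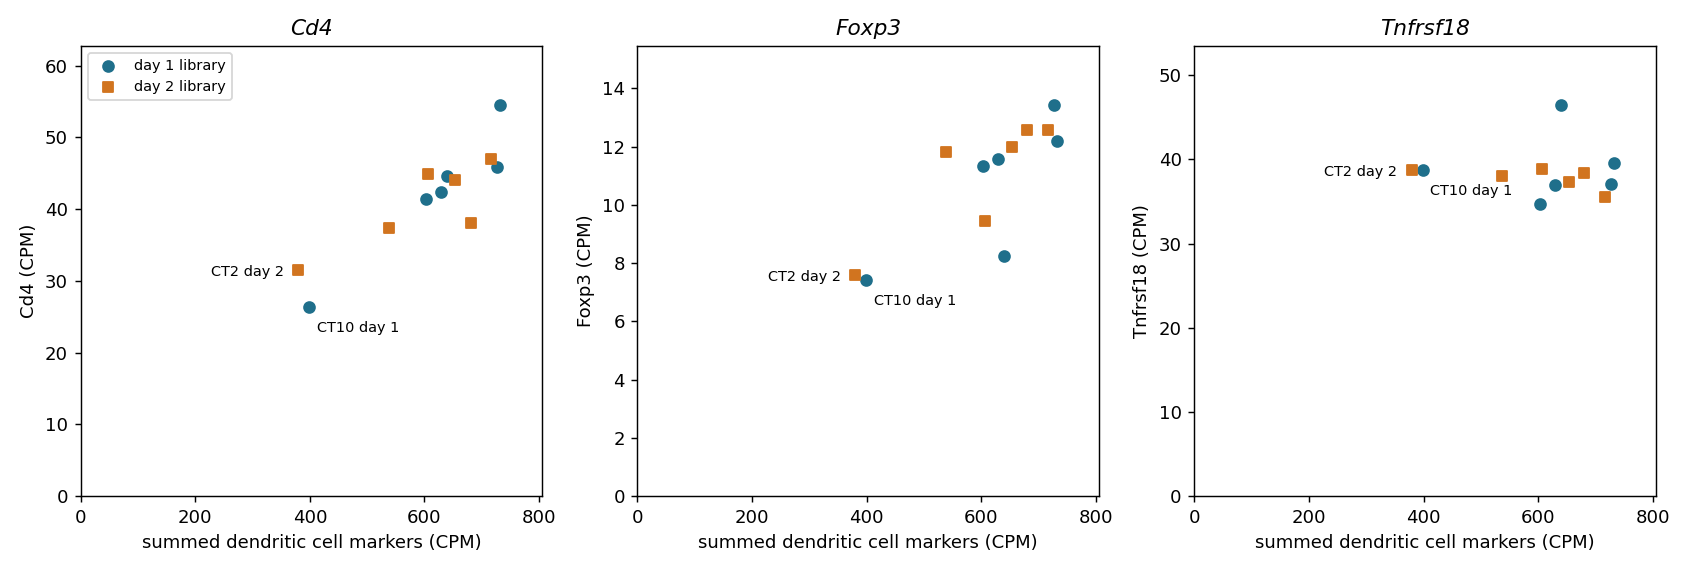
CPM of Cd4, Foxp3 and Tnfrsf18 against the summed CPM of 9 dendritic cell markers; circles are day 1 and squares day 2 libraries. CT10 day 1 and CT2 day 2 lie at the lower left for Cd4 and Foxp3, and Tnfrsf18 is about level across the axis.

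Ranked by likeness to Cd4 over the 12 libraries, near the top of 9640 genes were Prnp, the prion protein gene (r = 0.98), Zc3h12c, Ttc39a and Slc46a3 (each 0.96). These 4 were lowest in CT10 day 1 and highest in CT6 day 1, like Cd4. For Foxp3 the nearest were Ikzf4 (r = 0.95), the gene of the FOXP3 partner EOS, then Mapre2 and Trip10 (each 0.92), Anpep (0.91) and Plekhb2 (0.90). These r values only rank the genes over shared libraries and were not tested.

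The wider pathways were described from lists of related genes, and no gene of the 6 lists passed the 24 h test, the test of times or the day test with edgeR. In the list of factors that choose between the CD4 and CD8 fates all 16 genes were tested, with 2, 1 and 0 at an unadjusted p under 0.05 in these 3 tests. Tcf7, the gene of TCF-1, was its most abundant gene at 531 TPM, and Patz1 had the smallest p for the times (0.0395, adjusted 0.360). Of these 16 genes, 1 had its lowest value in CT10 day 1 or CT2 day 2, while 13 had it in CT2 day 1, against 18.2% of all tested genes. Of 20 helper subset genes 15 were tested, with 3, 3 and 1 at an unadjusted p under 0.05. Of these 15, 10 had their lowest value in CT10 day 1 or CT2 day 2, against 23.6% of all tested genes. The signature cytokines Il4, Il5, Il13, Il17a and Il17f had 46, 6, 28, 39 and 54 counts over all 12 libraries and were not tested. Bcl6, the factor of follicular helper cells, ranged from 23.7 CPM in CT10 day 1 to 33.7 CPM in CT22 day 2, with the smallest p of the list for the times (0.00411, adjusted 0.180). Cxcr3, a chemokine receptor also of CD8+ T cells, was highest in level at 53.3 TPM.

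Of the regulatory T cell programme all 22 genes were tested, with 1, 0 and 1 at an unadjusted p under 0.05. In 17 of them the lowest library was CT10 day 1 or CT2 day 2, as in 8 of the 10 members and 23.6% of all genes. Il2rb, a receptor chain for IL-2 and IL-15 that CD8+ T cells also carry, was the most abundant at 151 TPM, and Itgae, the gene of CD103, had the smallest p for the times (0.0582, adjusted 0.414). The partners and inducers of FOXP3 numbered 14, all tested, with 3, 0 and 0 at that level and 2 with their lowest value in one of the 2 libraries. In 9 of the 14 the lowest library was CT2 day 1. Usp7 was at 110.1 TPM, and Foxo3 had the smallest p for the times (0.0688, adjusted 0.435).

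Many of the listed ligands and binding partners of the members are made by antigen presenting cells, though not all. Of 11, 9 were tested, with 0, 0 and 0 at an unadjusted p under 0.05, and 8 of the 9 were lowest in CT10 day 1 or CT2 day 2. The exception was Il16, at 140 TPM and lowest in CT22 day 2. Cd74, the invariant chain of MHC class II, which CD4 binds, was at 963 ± 155 TPM (SD, n = 12) and lay between 547 CPM in CT2 day 2 and 934 CPM in CT14 day 2. Its level exceeded that of each of the 10 members in every library. Tnfsf18, the ligand of GITR, had 5 counts in all, and Izumo1, the sperm ligand of the Izumo1r protein, had 30. Signalling and trafficking genes numbered 14, all tested, with 2, 0 and 0 at that level, and Lck, the kinase that binds both co-receptors, was highest at 706 TPM with the smallest p for the times (0.0662, adjusted 0.429). In 2 of these 14 the lowest library was one of the pair, and in 6 it was CT2 day 1.

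Counts on genes ran from 24689964 to 33497078 per library, and the scaling factors from 0.959 to 1.04. CT10 day 1 and CT2 day 2, where most members were lowest, had 28628059 and 26893486 counts, inside that range. Fragments in the 4 summary lines that name no gene made 29.3% to 31.2% of each library.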

How the data were processed

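Polyadenylated RNA of CD8+ T cells was sequenced in 12 libraries, 1 for each of 6 circadian times on each of 2 days. Reads had been handled with RSEM 1.2.28, STAR 2.5.1b, Trimmomatic 0.35 and bcl2fastq 2.19 on GRCm38, per the submitters' processing notes. The annotation is not given in the sources used here. For each library the authors deposited unnormalised read counts per gene in 3 ways of treating strand, and column 4 was used, since 11.4% to 13.9% of its fragments matched no gene, against 77.6% to 80.9% in the other stranded column. Lines that name no gene (29.3% to 31.2% of fragments) entered neither library sizes nor tests. RSEM tables deposited by the authors gave expected counts, rounded to whole numbers before use, TPM, and FPKM, which is scaled to gene length and depth. Of 50600 identifiers, 50376 matched a symbol in GENCODE M21 (45737 with the same version), the source of the coordinates.

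Counts were filtered with filterByExpr by circadian time (16396 genes kept), scaled with TMM and tested with edgeR 4.0.16 in R 4.3.3 (quasi-likelihood F tests, Benjamini-Hochberg adjustment, threshold 0.05; common biological coefficient of variation 0.0967). The 24 h test fitted a cosine and a sine together, the test of times 5 coefficients, and the day test stood beside the 24 h wave. CPM values use the TMM factors, and correlations use log2 CPM with a prior count of 2.

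Alternatives were DESeq2 1.42.0 and its size factors, no filter, unstranded counts, expected counts, limma 3.58.1 on log2(TPM + 1) and log2(TPM + 0.1), FPKM for TPM, a day block and leaving out each library. Replicate numbers in the labels stand for the collection day and therefore pair libraries. Over 10153 genes the deviations of the days correlated between 15 pairs of times from -0.60 to 0.35 (median 0.08), with 6 above 0.1. A day block took the genes passing the test of times from 42 to 20, none of them a member.

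The members and the lists were chosen with earlier results of these data known. Named were all members, from each pathway list the gene of smallest p over the times and the highest in TPM, from each marker list of 5 cell types up to 2 highest in TPM, and the 5 genes most like Cd4 and Foxp3 among those of at least 5 CPM that were not predicted genes. One gene that this rule took is not reported here.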

Additional observations from a re-analysis of the deposited data

Results flagged for a closer look

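In day 2 the Tnfrsf4 value of CT2 lay far below the other 5 libraries of that day, at 10.9 CPM against 17.0 CPM for the next, a gap of 0.703 of the whole range, above Dixon's 95% limit for a group of 6. It was the only such value among 20 groups of 6 libraries tested, 1 for each member and day, and chance gives about 1 in 20.

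Fragments on the strand opposite to each member did not enter the stranded counts on which the tests rest. As a share of the fragments on both strands they made 53.2% for Foxp3, which overlaps genes on that strand, with 267 to 473 counts per library. The shares were 2.53% for Cd4, 4.58% for Zbtb7b, 1.71% for Cd40lg, 2.45% for Tnfrsf4, 3.38% for Tnfrsf18, 1.24% for Ikzf2, 3.22% for Izumo1r, 1.66% for Ctla4 and 1.32% for Icos. The median over tested genes was 2.74%, and 5.47% of them were at or above Foxp3.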

How the results depend on the processing

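For the 24 h wave 0 genes passed, but 246 with DESeq2, 323 without the filter, 0 to 145 with libraries left out (145 without CT2 day 2) and 74 without both CT10 day 1 and CT2 day 2, a choice made after seeing the data. For the circadian times 42 passed, but 516 with DESeq2, 2146 without the filter, 20 with the replicate block (day), 14 and 13 with limma (pseudocounts 1 and 0.1), 1359 without both libraries, and 6 to 1745 with libraries left out (664 without CT2 day 1, 1745 without CT2 day 2). For the day 0 passed, but 6 with DESeq2 and 0 to 16 with libraries left out (2 without CT2 day 2, 16 without both). Members passed in the test of times only: 1 with DESeq2 and 5 without the filter. The replicate block changed no member's call. The cause was not tested. Of 630 alternative fits of 30 member results, 593 kept direction and call, 6 gained a call and 31 changed sign, all in day differences that had not passed. Those were Zbtb7b with limma (-0.00678 and -0.00958 log2), Ctla4 with limma (0.0452 and 0.0482) and Izumo1r with expected counts (-0.00378). With libraries left out, both together included, the differences that changed sign ranged over -0.185 to 0.0566 for Cd4, -0.0548 to 0.177 for Zbtb7b, -0.0753 to 0.123 for Foxp3, -0.153 to 0.0262 for Tnfrsf4, -0.0649 to 0.0125 for Tnfrsf18, -0.039 to 0.142 for Ikzf2, -0.0383 to 0.0514 for Izumo1r and -0.126 to 0.0667 for Ctla4.

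Of the 27 relations 13 passed, 1 to 13 with libraries left out (3 without CT10 day 1, 3 without CT2 day 2, 1 without both), and 9 on log2(TPM + 1), where Cd4 with Zbtb7b, Foxp3, Tnfrsf4 and Ikzf2 (r = 0.63, 0.51, 0.57 and 0.24) and Foxp3 with Ikzf2 (0.47) no longer passed. The 1 relation that passed without both was Foxp3 with Izumo1r (r = -0.88), which had not passed over the 12 libraries. None of the 13 passed there. The r that changed sign ranged, for Cd4, with Cd40lg -0.142 to 0.408, Foxp3 -0.0107 to 0.773, Tnfrsf18 -0.212 to 0.15, Izumo1r -0.0414 to 0.552, monocytes -0.0808 to 0.819 and neutrophils -0.138 to 0.725. For Foxp3 it ranged with Cd40lg -0.279 to 0.283, Izumo1r -0.88 to 0.00912, Icos -0.167 to 0.783, B cells -0.148 to 0.496, monocytes -0.377 to 0.582, neutrophils -0.0512 to 0.595 and NK cells -0.521 to 0.724. Depth limits Cd40lg most, at 78 to 134 counts a library, and 1 library per time and day limits every test.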
